A study of Mus musculus with 12 samples.

Results

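The response of B6J mouse embryonic stem (ES) cells to a MEK inhibitor was described across 16627 expressed genes. The 6 libraries labelled B6J, of 12 in the series, were chosen by their labels: 3 from cells given the solvent DMSO and 3 from cells given 1 µM PD 0325901, which blocks the kinase MEK. Both groups were male by label, were cultured with serum and LIF (leukaemia inhibitory factor), and were treated daily from day 0 to day 5. RNA from Trizol extracts was made into stranded polyA libraries (TruSeq Stranded mRNA) and sequenced on a NovaSeq 6000. The label B6J was taken to stand for C57BL/6J mice. The labels name 1 genotype and no clone, so an effect of the background cannot be told apart from one of the line used. No label says that the 3 libraries of a group were separate cultures, so p-values cover the variation among the libraries at hand, some or all of which may be technical. The remaining 6 libraries, from cells labelled 129 under the same treatments, shared the estimate of the spread and served to test where the responses of the backgrounds differed.

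MEK phosphorylates and activates ERK, the last kinase of the RAS-RAF-MEK-ERK cascade. In ES cells the cascade is driven mainly by FGF4, which the cells secrete themselves, and it primes them to leave the naive state of pluripotency, while LIF acts through STAT3 to hold them in it. Active ERK switches on immediate early transcription factors and also its own inhibitors, such as dual-specificity phosphatases and Sprouty proteins, so the RNA of these genes reports on ERK output.

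Library totals were 74164171 to 82505523 counts with DMSO and 81310810 to 96341637 with the inhibitor. Levels are given in CPM, counts scaled to a common library total with TMM factors, in the order of replicates 1, 2 and 3. Changes are log2 fold changes of inhibitor over DMSO with their standard error (SE), tested with edgeR's quasi-likelihood test, and genes under an adjusted p of 0.05 (Benjamini-Hochberg) are termed called. The SE is an approximation, the absolute log2 fold change divided by the square root of the test's F statistic. Between libraries of 1 treatment the root mean square difference of log2 CPM, over genes averaging 10 CPM or more, was 0.0928 to 0.349, against 0.469 to 0.580 between treatments. DMSO replicate 1 and inhibitor replicate 3 stood apart from the other libraries of their groups, with a chi-square per degree of freedom of 85.2 to 88.8 and 42.1 to 120.4 (6.91 and 26.3 between the others). Calls and counts of the main comparison that changed without both are given both ways for the genes named. In 129, replicate 1 differed most from the others of its group. Its chi-square values were 166 to 175 with DMSO (7.50 between the others) and 69.6 to 85.0 with the inhibitor (15.7). Below, the libraries that stood apart are the 2 of B6J. The ES cell markers Pou5f1, Nanog, Sox2, Zfp42, Esrrb, Dppa5a, Tdh and Utf1 were present in all 6 libraries. Markers of fibroblasts, which are often used as feeder cells, were present too, and they are described with the matrix genes. In bulk RNA, fewer cells of a type and less RNA per cell cannot be told apart.

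In all, 5166 genes were called, which is 31.1% of those tested: 2423 were higher with the inhibitor (14.6%) and 2743 were lower (16.5%). The median change of the called genes was 0.79 in absolute log2 units, and that of all genes tested was 0.0023. A rise of at least 1 log2 unit was found for 991 called genes and a fall of that size for 1052. Changes of at least 3 units were found for 116 genes upward and 95 downward. The libraries of the treatments did not overlap for 5103 of the called genes, against 50.0% of all genes tested. The share called was 22.7% of genes at or under 1 CPM, 39.7% between 1 and 10 CPM, 31.8% between 10 and 100 CPM and 28.7% above 100 CPM. Long intergenic noncoding RNAs were called higher in 105 cases and lower in 39 of 767, and protein-coding genes in 2317 and 2703 of 15836. On the X chromosome 73 genes were higher and 125 lower of 592. Counts of list members given below are to be read against the shares of all genes, 14.6% higher and 16.5% lower.

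**Figure D1:**
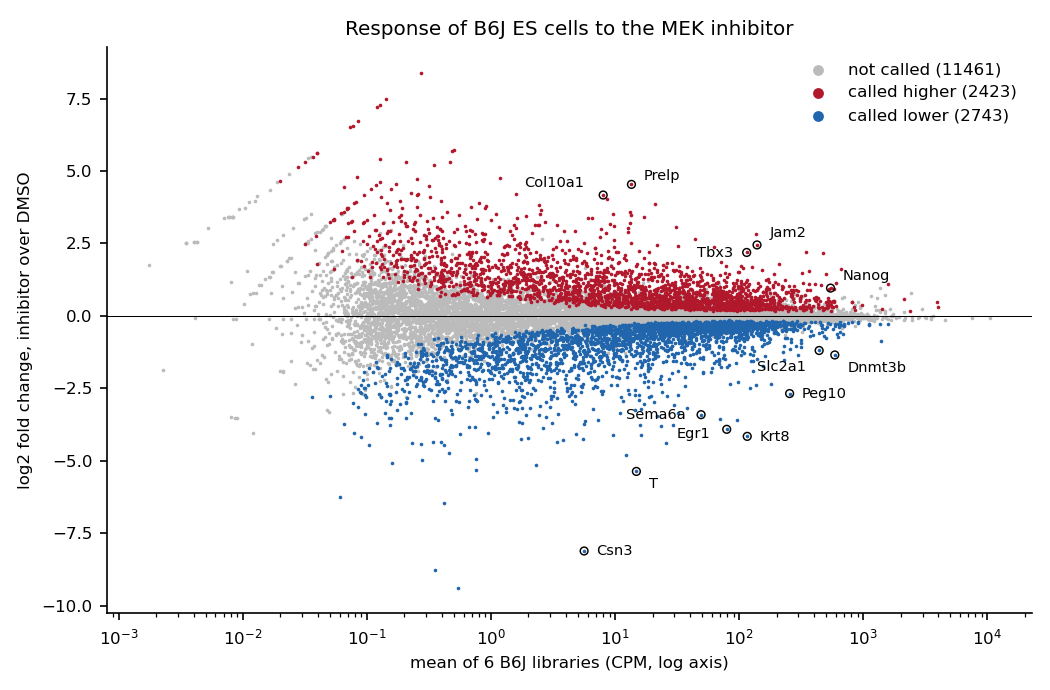
Mean level over the 6 B6J libraries (CPM, log axis) against the log2 fold change of inhibitor over DMSO for each of the 16627 genes tested. Coloured points are the 2423 genes called higher and the 2743 called lower, and grey points were not called. Labelled points are a choice of the genes named in the text.

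Most genes that report on ERK output were lower with the inhibitor. Of 21 tested feedback inhibitors, 17 fell and 1 rose, with a median of -1.21. Among the phosphatases that remove phosphate from ERK and related kinases, 9 of 10 fell. Dusp6, a cytoplasmic ERK phosphatase (chromosome 10, 99263231 to 99267489, GRCm38), was at 119, 114 and 107 CPM with DMSO and 39.9, 39.1 and 41.7 CPM with the inhibitor (log2 fold change -1.49 ± 0.084, adjusted p = 7.74e-07). The nuclear phosphatase Dusp4 was at 29.4, 28 and 31.4 CPM with DMSO and 7.49, 8.24 and 9.96 CPM with the inhibitor (log2 fold change -1.79 ± 0.14, adjusted p = 4.38e-06). Each inhibitor library was below every DMSO library for both genes. Dusp5, another nuclear ERK phosphatase, fell by a like amount (-1.27), and Dusp9 changed by -1.91.

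Inhibitors that act nearer the receptor also fell. Spry4, a Sprouty protein, was at 57, 60.9 and 54.6 CPM with DMSO and 14.4, 16.9 and 22.6 CPM with the inhibitor (log2 fold change -1.68 ± 0.15, adjusted p = 9.04e-06). Spred1, which recruits the RAS inactivator neurofibromin, was at 124, 154 and 166 CPM with DMSO and 55.3, 59.1 and 61.4 CPM with the inhibitor (log2 fold change -1.34 ± 0.10, adjusted p = 4.38e-06). Il17rd, which binds FGF receptors and MEK, changed by -1.21. Spry2 changed less (-0.39), and its adjusted p of 0.00921 became 0.0508 without inhibitor replicate 2. The exception was Lrig1, an inhibitor of EGF family receptors, at 22.6, 22.7 and 21.3 CPM with DMSO and 33.1, 34.1 and 35.4 CPM with the inhibitor (log2 fold change 0.62 ± 0.093, adjusted p = 0.000402).

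Immediate early genes and ETS factors had 17 of 31 members lower and a median of -0.36. Egr1, a zinc finger factor induced within minutes of ERK activation, was at 141, 148 and 157 CPM with DMSO and 9.77, 8.51 and 11.2 CPM with the inhibitor (log2 fold change -3.92 ± 0.21, adjusted p = 6.46e-07). Egr2 changed by -2.50. The AP-1 subunits Fos and Jun changed by -1.34 and -1.26, and 6 of 8 AP-1 genes fell. The ETS factors divided: Etv4 was at 121, 106 and 102 CPM with DMSO and 24.4, 32.1 and 39.8 CPM with the inhibitor (log2 fold change -1.77 ± 0.15, adjusted p = 6.39e-06), whereas Etv5 was at 341, 302 and 291 CPM with DMSO and 341, 339 and 346 CPM with the inhibitor, with overlapping groups (log2 fold change 0.13 ± 0.12, adjusted p = 0.424). The MYC genes did as well: Myc was at 46.2, 53.9 and 50.2 CPM with DMSO and 20.5, 26.3 and 31.8 CPM with the inhibitor (log2 fold change -0.93 ± 0.13, adjusted p = 0.000306), and Mycn, at 227, 203 and 179 CPM with DMSO and 221, 232 and 245 CPM with the inhibitor, did not pass the test (adjusted p = 0.0949), although it did without DMSO replicate 1 (0.0204) or inhibitor replicate 1 (0.0455). The plot of levels by library shows Egr1, Etv4 and Etv5 among others.

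**Figure D2:**
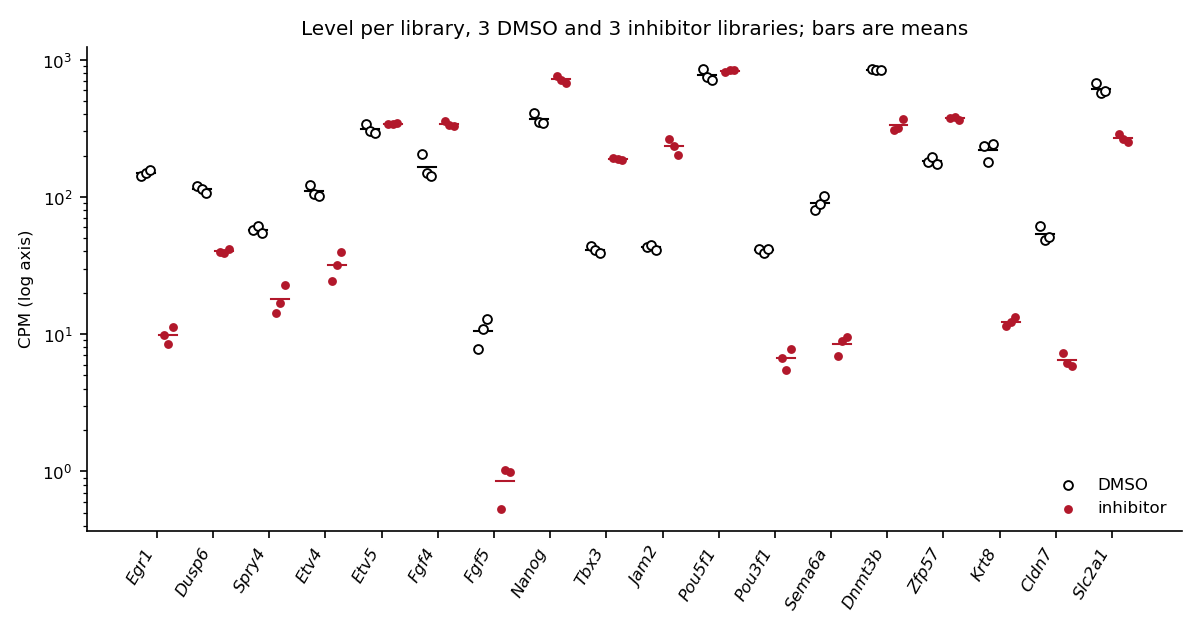
Level of 18 genes in each of the 6 B6J libraries (CPM, log axis), with open circles for the 3 DMSO libraries and filled circles for the 3 inhibitor libraries and a bar at each group's mean. ERK output, formative and epithelial genes lie lower with the inhibitor and naive genes higher, without overlap, while Etv5 and Pou5f1 overlap.

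ERK acts on promoters through ETS factors and the serum response factor SRF. Sequences are shown from before the starts of 3 feedback genes, ranked 1, 2 and 4 by p among the feedback inhibitors called lower. They are the 250 bases before the transcription start from RefSeq on GRCm38.p6, all on the plus strand: chr10:99262981-99263230 for Dusp6, chr19:53528895-53529144 for Dusp5 and chr2:117120821-117121070 for Spred1. Capitals mark CArG boxes, the binding motif of SRF.
Dusp6: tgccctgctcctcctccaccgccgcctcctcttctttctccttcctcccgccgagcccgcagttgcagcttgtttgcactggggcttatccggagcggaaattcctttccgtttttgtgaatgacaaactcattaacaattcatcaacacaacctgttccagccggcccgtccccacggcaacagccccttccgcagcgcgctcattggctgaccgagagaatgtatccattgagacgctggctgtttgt
Dusp5: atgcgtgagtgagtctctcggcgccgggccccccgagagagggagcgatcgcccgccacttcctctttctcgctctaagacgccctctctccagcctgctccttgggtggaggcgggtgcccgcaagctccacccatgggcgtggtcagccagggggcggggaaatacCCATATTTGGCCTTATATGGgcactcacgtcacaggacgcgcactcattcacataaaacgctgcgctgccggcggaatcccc
Spred1: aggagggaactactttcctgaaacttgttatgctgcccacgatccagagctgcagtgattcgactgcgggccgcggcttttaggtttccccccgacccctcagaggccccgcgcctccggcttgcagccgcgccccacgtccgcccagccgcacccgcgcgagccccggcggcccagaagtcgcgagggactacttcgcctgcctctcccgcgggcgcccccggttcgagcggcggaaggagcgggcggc
The Dusp5 window held 2 CArG boxes, CCATATTTGG and CCTTATATGG, directly next to each other and starting 82 and 72 bases before the start. The windows of Dusp6 and Spred1 held no match to any motif searched. The motifs, on both strands, were the CArG box, CCGGAA for ETS factors, TGANTCA for AP-1, TGACGTCA for cyclic AMP response elements and TTCNNNGAA for STAT factors. Of the fallen feedback and immediate early genes, 32 were looked up and 23 had an entry. Of those with an entry, 1 held a CArG box, 1 an ETS motif and 2 a cyclic AMP element. Fallen genes on the chromosome of Egr1, itself included, were left out of the search, so these counts do not cover them. The shares among all 27025 promoters were 1.4% for the CArG box, 12.3% for ETS, 6.82% for AP-1, 1.6% for the cyclic AMP element and 7.09% for STAT. Among the 12608 promoters of tested genes they were 1.22%, 20%, 4.77%, 2.57% and 5.72%. A match describes these letters only.

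The cascade itself changed less than its targets, with 5 of 34 members higher, 8 lower and a median of -0.076. Of all genes 14.6% were higher and 16.5% lower. Map2k1, which encodes MEK1, did not pass the test (0.17, adjusted p = 0.0587), but passed it under 11 of 23 alternatives, among them DESeq2 (0.0117), the replicate block (0.0469), and leaving out DMSO replicate 1 (0.0136), both libraries that stood apart (0.0249) or any 1 of the 129 inhibitor libraries (0.0188 to 0.0331). Mras, a RAS relative that helps activate RAF, was at 14, 15.4 and 14 CPM with DMSO and 40.7, 43.3 and 47.4 CPM with the inhibitor (log2 fold change 1.60 ± 0.085, adjusted p = 6.06e-07). Genes that carry the signal from receptors to RAS, with the RAS genes, divided, with 3 of 14 higher and 3 lower: the adaptor Shc1 and the exchange factor Sos2 changed by -0.50 and -0.96, and the adaptors Grb2 and Frs3 rose by 0.26 and 0.39. The call of Grb2 ended without DMSO replicate 2 (adjusted p = 0.0912) or 3 (0.0892) or inhibitor replicate 2 (0.0562). That of Frs3 ended without DMSO replicate 2 (0.0729) or 3 (0.086), inhibitor replicate 3 (0.0721) or both libraries that stood apart (0.0646). The count of higher members was 1 without DMSO replicate 2 or DMSO replicate 3, 2 without inhibitor replicate 2 or inhibitor replicate 3 and 8 without the 129 inhibitor replicate 1. The count of lower members was 5 without inhibitor replicate 1 and 4 without inhibitor replicate 2.

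The FGF ligands moved in opposite directions. Fgf4, the main ligand made by naive cells, was at 205, 149.6 and 143 CPM with DMSO and 355, 334 and 326 CPM with the inhibitor (log2 fold change 1.03 ± 0.12, adjusted p = 6.17e-05). Fgf5, a marker of the formative epiblast, was at 7.82, 10.9 and 12.9 CPM with DMSO and 0.531, 1.02 and 0.988 CPM with the inhibitor (log2 fold change -3.63 ± 0.31, adjusted p = 7.67e-06). Fgf8, Fgf15 and Fgf13 also fell (-4.30, -1.83 and -1.64), while Fgf10 and Fgf18 rose (1.52 and 1.39). Of the 21 tested ligands, receptors and binding proteins 3 rose and 6 fell. Of 8 receptors and binding proteins, 1 was called: Fgfbp1, which releases FGFs from the matrix, changed by -1.85.

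Naive pluripotency genes rose in 19 of 25 cases, against 14.6% of all genes, with a median of 0.92. Jam2, a junction protein used as a naive marker, was at 43.3, 44.8 and 41.1 CPM with DMSO and 266, 237 and 203 CPM with the inhibitor (log2 fold change 2.45 ± 0.19, adjusted p = 4.53e-06). Tbx3, a T-box factor of the naive network, was at 44, 41.2 and 38.7 CPM with DMSO and 192, 187 and 186 CPM with the inhibitor (log2 fold change 2.19 ± 0.097, adjusted p = 2.10e-07). Prdm14, which represses FGF receptor and methyltransferase genes, was at 10.4, 9 and 7.61 CPM with DMSO and 33.6, 32.2 and 31.2 CPM with the inhibitor (log2 fold change 1.84 ± 0.20, adjusted p = 4.92e-05). All 3 inhibitor libraries exceeded all 3 DMSO libraries for each. Klf2, Klf4, Tfcp2l1, Esrrb, Nanog and Zfp42 rose by 1.17, 0.84, 1.44, 0.94, 0.96 and 0.92. Spic, an ETS-family factor, rose from 1.32, 0.975 and 1.12 CPM to 13.9, 12.2 and 9.32 CPM (log2 fold change 3.37 ± 0.28, adjusted p = 6.47e-06). Klf5 rose least of the named factors (0.32) and its call ended without DMSO replicate 2 (adjusted p = 0.0657) or DMSO replicate 3 (0.0712).

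The list had 2 members that fell. Gbx2, a homeobox factor and LIF target, was at 13.4, 13.1 and 12.1 CPM with DMSO and 5.11, 7.02 and 6.78 CPM with the inhibitor (log2 fold change -1.03 ± 0.25, adjusted p = 0.00909). Dppa3, an egg and germ cell protein that keeps UHRF1 off chromatin, was at 63.6, 54 and 54.2 CPM with DMSO and 44.9, 41.4 and 39.8 CPM with the inhibitor (log2 fold change -0.45 ± 0.13, adjusted p = 0.0252). Without both libraries that stood apart, the adjusted p was 0.0522 for Gbx2 and 0.194 for Dppa3. The call of Dppa3 also ended without DMSO replicate 1 (0.0886), inhibitor replicate 2 (0.082) or inhibitor replicate 3 (0.0847).

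Core pluripotency genes, shared by naive and primed cells, were divided, with 4 of 14 higher and 3 lower. Pou5f1, which encodes OCT4, was at 855, 749.5 and 714 CPM with DMSO and 809, 835 and 841 CPM with the inhibitor, with overlapping groups (log2 fold change 0.100 ± 0.090, adjusted p = 0.446). Sox2, its partner, was at 232, 219 and 197 CPM with DMSO and 336, 323 and 309 CPM with the inhibitor (log2 fold change 0.58 ± 0.11, adjusted p = 0.00156). Sall4 and Sall1 rose by 0.38 and 0.49, and Foxd3 by 1.79. Both LIN28 genes, whose proteins block maturation of let-7 microRNAs, fell, with changes of -0.61 for Lin28a and -1.41 for Lin28b. Utf1 changed by -0.58.

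Formative and primed genes were mostly lower, 13 of 25 against 16.5% of all genes, with 4 higher and a median of -0.92. Pou3f1, a POU factor of the formative epiblast, was at 41.4, 39.2 and 41.7 CPM with DMSO and 6.68, 5.45 and 7.82 CPM with the inhibitor (log2 fold change -2.61 ± 0.20, adjusted p = 4.35e-06). Sema6a, a semaphorin, was at 80.4, 88.6 and 101 CPM with DMSO and 6.91, 8.86 and 9.6 CPM with the inhibitor (log2 fold change -3.41 ± 0.17, adjusted p = 4.30e-07). Grhl2, which opens epithelial enhancers in formative cells, changed by -2.13. Otx2, the formative homeobox factor, went the other way, at 8.22, 7.25 and 6.21 CPM with DMSO and 14.7, 11.7 and 11.8 CPM with the inhibitor (log2 fold change 0.82 ± 0.15, adjusted p = 0.00138), as did Foxd3, the ephrin receptor Epha4 (0.87) and Ncam1 (0.60). The call of Ncam1 ended without both libraries that stood apart (adjusted p = 0.103).

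**Figure D3:**
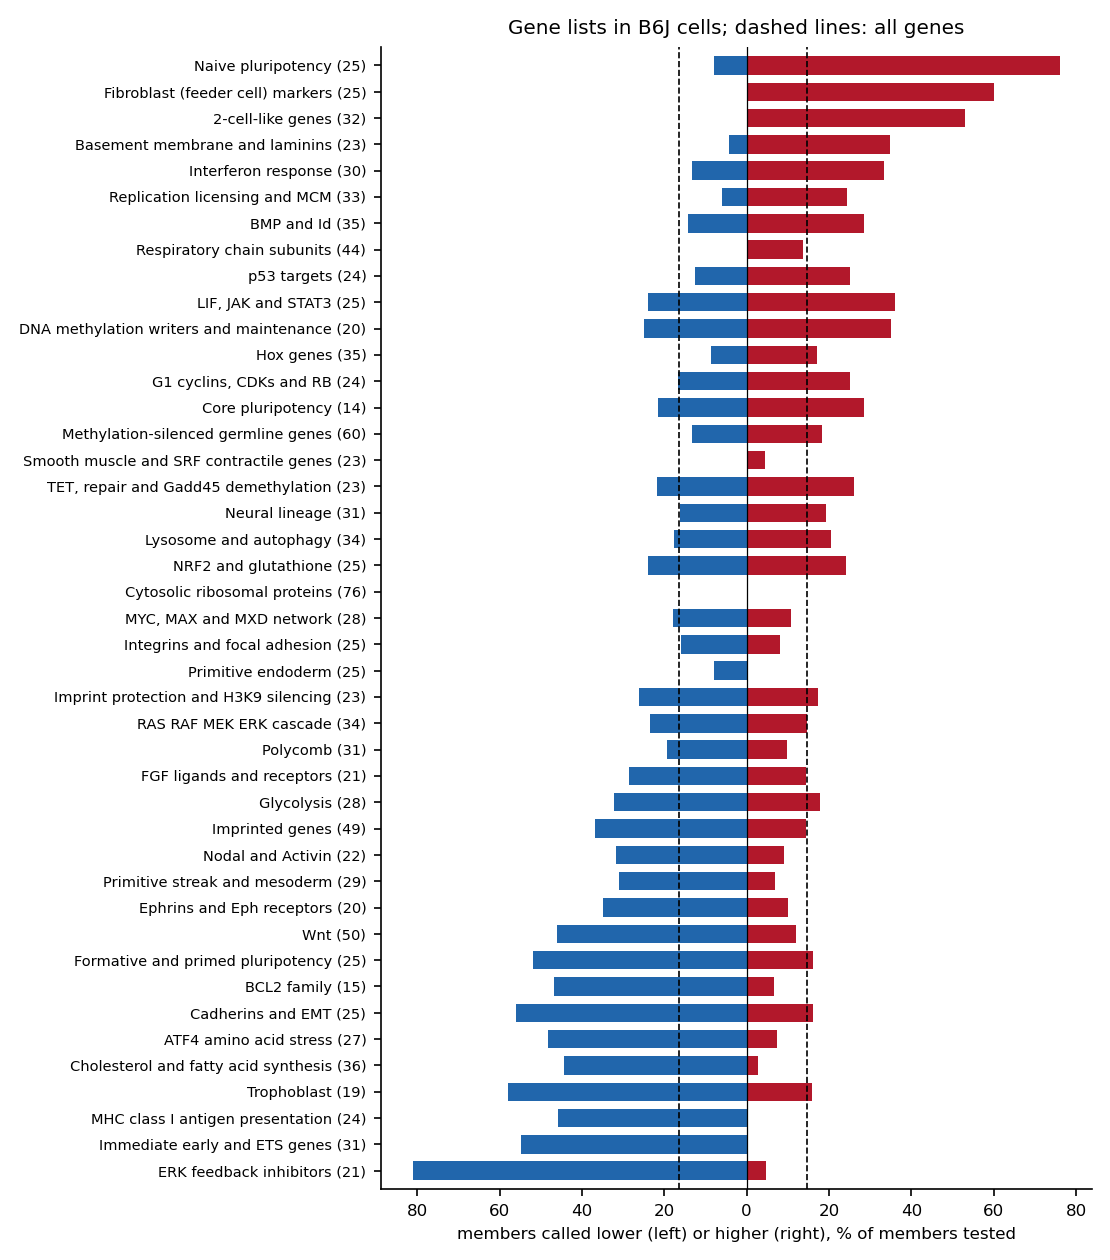
Share of the tested members of each gene list called lower (left) and higher (right) with the inhibitor in B6J cells, with the number of members tested beside each name. Dashed lines mark the shares over all 16627 genes, 16.5% lower and 14.6% higher.

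LIF pathway genes went both ways, with 9 of 25 members higher and 6 lower. Of 9 receptor and kinase genes 3 rose, and of 16 STAT factors, targets and inhibitors 6 rose and 6 fell. Lifr and Il6st, the 2 chains of the LIF receptor, rose by 0.95 and 0.55, Stat3 by 0.45 and Jak3 by 0.98, while Stat5b changed by -0.58. Pim2, a kinase gene induced by STAT proteins, was at 204, 234 and 249.9 CPM with DMSO and 38.6, 43 and 50.8 CPM with the inhibitor (log2 fold change -2.38 ± 0.20, adjusted p = 6.14e-06). Pim1, Socs2 and Junb fell as well, with changes of -0.96, -0.86 and -0.68. Socs3, a feedback inhibitor of the pathway, was at 70.4, 59.8 and 54.7 CPM with DMSO and 74.6, 78 and 85.8 CPM with the inhibitor (log2 fold change 0.37 ± 0.10, adjusted p = 0.0168), a call that ended without DMSO replicate 2 (adjusted p = 0.0589) or DMSO replicate 3 (0.0732).

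Wnt pathway genes had 23 of 50 members lower and 6 higher, with a median of -0.44. Of the 20 ligand genes 9 fell, among them Wnt8a, at 13.5, 19.5 and 21.8 CPM with DMSO and 0.582, 1.16 and 1.44 CPM with the inhibitor (log2 fold change -4.10 ± 0.60, adjusted p = 0.000359), and Wnt3, which induces the primitive streak, at 9.19, 11.2 and 15.4 CPM with DMSO and 1.06, 1.28 and 1.53 CPM with the inhibitor (log2 fold change -3.20 ± 0.31, adjusted p = 1.98e-05). Of 14 target genes 9 fell and 1 rose. The targets Sp5 and Rnf43 changed by -1.24 and -1.99, and the riser was Notum, an enzyme that inactivates Wnt ligands, at 5.94, 5.85 and 4.51 CPM with DMSO and 23.6, 25.7 and 27.1 CPM with the inhibitor (log2 fold change 2.23 ± 0.23, adjusted p = 2.58e-05). Axin2, the most widely used reporter of the pathway, was at 22.7, 22 and 24.1 CPM with DMSO and 23.4, 21.2 and 20.1 CPM with the inhibitor, with overlapping groups (log2 fold change -0.089 ± 0.15, adjusted p = 0.694). Other risers were the receptor Fzd5 (0.97), the repressor Tcf7l1 (0.47) and the R-spondins Rspo2 and Rspo3 (3.37 and 2.27), secreted proteins that strengthen Wnt signals. The number of higher members was 10 without the 129 DMSO replicate 1 or with the B6J libraries alone.

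Genes of the primitive streak, the site where mesoderm forms, were lower in 8 of 18 cases. T, also called Brachyury, was at 17.3, 30.0 and 39.5 CPM with DMSO and 0.709, 0.693 and 0.693 CPM with the inhibitor (log2 fold change -5.37 ± 0.50, adjusted p = 1.36e-05). After that of Csn3, given below, it was the largest fall among genes of at least 5 CPM. Fgf8, an early streak ligand, was at 5.5, 7.03 and 9.32 CPM with DMSO and 0.177, 0.353 and 0.557 CPM with the inhibitor (log2 fold change -4.30 ± 0.56, adjusted p = 0.000152). Mixl1 fell from 1.33, 1.06 and 1.15 CPM to 0.253, 0.559 and 0.441 CPM (log2 fold change -1.49 ± 0.31, adjusted p = 0.00358), and Gsc, an organiser gene, rose from 0.365, 0.313 and 0.162 CPM to 0.658, 1.22 and 0.967 CPM (log2 fold change 1.75 ± 0.35, adjusted p = 0.00287).

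Nodal and Activin genes showed 7 of 22 lower and 2 higher. Lefty1, a Nodal antagonist and target, was at 305, 291 and 312 CPM with DMSO and 55.2, 58.4 and 66 CPM with the inhibitor (log2 fold change -2.34 ± 0.25, adjusted p = 3.55e-05), whereas its neighbour Lefty2 was at 121, 114 and 129 CPM with DMSO and 146, 129.8 and 128 CPM with the inhibitor, with overlapping groups (log2 fold change 0.15 ± 0.11, adjusted p = 0.334). Nodal itself was at 95.4, 85.6 and 89.1 CPM with DMSO and 97.7, 95.4 and 102 CPM with the inhibitor, also with overlap (log2 fold change 0.13 ± 0.097, adjusted p = 0.36). The proprotein convertase Pcsk6, which matures Nodal, rose by 0.83.

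BMP genes had 10 of 35 members higher and 5 lower, against 14.6% and 16.5% of all genes. Id4 and Id2, inhibitors of differentiation induced by BMP, rose by 1.98 and 0.83, and Smad6, a feedback inhibitor, by 0.95. Id1 was at 10.6, 14.8 and 13.4 CPM with DMSO and 8.11, 14.2 and 19 CPM with the inhibitor, with overlap (log2 fold change 0.087 ± 0.26, adjusted p = 0.836). The ligands Bmp8b and Bmp7 fell (-2.58 and -0.60). The count of lower members was 3 without inhibitor replicate 1, DMSO replicate 3 or inhibitor replicate 3.

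Epithelial genes fell almost as a whole, 14 of 15, with a median of -1.71. Cldn7, a tight junction claudin, was at 61.1, 48.8 and 50.9 CPM with DMSO and 7.33, 6.14 and 5.82 CPM with the inhibitor (log2 fold change -3.06 ± 0.16, adjusted p = 4.30e-07). Epcam, an epithelial adhesion molecule, was at 374, 318 and 332 CPM with DMSO and 123, 113 and 118 CPM with the inhibitor (log2 fold change -1.53 ± 0.097, adjusted p = 1.30e-06). Cdh1, which encodes E-cadherin, was at 906, 767 and 822 CPM with DMSO and 578, 518 and 509.9 CPM with the inhibitor (log2 fold change -0.64 ± 0.089, adjusted p = 0.00026). The groups did not overlap for any of them. Esrp1, a splicing factor of epithelial cells, changed by -1.69. Krt8, a keratin of simple epithelia, was at 236, 179 and 244 CPM with DMSO and 11.4, 12.3 and 13.2 CPM with the inhibitor (log2 fold change -4.16 ± 0.37, adjusted p = 1.15e-05). Of 10 mesenchymal genes 4 rose, among them Zeb1, a repressor of Cdh1, at 20.4, 27.6 and 26.7 CPM with DMSO and 45.9, 45.6 and 45.4 CPM with the inhibitor (log2 fold change 0.87 ± 0.13, adjusted p = 0.000324). The summed level of the 10 was 4029, 4264 and 4309.8 CPM with DMSO and 5028, 5990 and 6948 CPM with the inhibitor, and that of the fibroblast markers, described below, was 11701, 14749 and 17696 CPM in the inhibitor libraries. Their part in this count was not tested. Over the whole list of cadherins and transition genes the number of higher members was 2 without DMSO replicate 1, DMSO replicate 3, inhibitor replicate 2 or inhibitor replicate 3, and 1 without both libraries that stood apart.

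Trophoblast genes had 11 of 19 members lower and 3 higher, and the fallen members included the keratins Krt8 and Krt7 (-2.12), which epithelia share. The trophoblast regulators Cdx2 and Hand1 changed by -2.34 and -1.52, from 1.51, 0.987 and 1.32 CPM and 1.13, 1.13 and 1.08 CPM. The 3 risers were regulators as well, Tead4, Tfap2a and Gata3, with 0.77, 0.73 and 0.60. Their calls ended without DMSO replicate 2 (adjusted p = 0.073, 0.0989 and 0.0937). Those of Tead4 and Gata3 ended without DMSO replicate 3 (0.0728 and 0.0757), and those of Tfap2a and Gata3 without DMSO replicate 1 (0.0686 and 0.087), inhibitor replicate 3 (0.0894 and 0.135) or both libraries that stood apart (0.167 and 0.232). That of Gata3 also ended without inhibitor replicate 1 (0.0698) and with the replicate block (0.0511). Among the Eph receptors and their ligands 7 of 20 fell and 2 rose: Epha1 was at 50.0, 53.3 and 60.3 CPM with DMSO and 3.3, 4.38 and 4.26 CPM with the inhibitor (log2 fold change -3.78 ± 0.15, adjusted p = 1.33e-07), Epha8 changed by -3.71 and Epha2 by -0.95. Integrins and focal adhesion genes had 4 of 25 lower and 2 higher, not above the shares of all genes (16.5% and 14.6%), and 2 lower without inhibitor replicate 1 or inhibitor replicate 2. Itga3, a laminin receptor subunit, was at 210.4, 185 and 222 CPM with DMSO and 35.5, 36.5 and 36.9 CPM with the inhibitor (log2 fold change -2.50 ± 0.12, adjusted p = 3.11e-07). Neural genes had 6 of 31 higher and 5 lower, close to the shares of all genes. Nes changed by -1.32 and Sox3 by -1.20, while Tubb3 and Stmn2, both bound to microtubule structure, rose by 1.09 and 0.89. Of 25 primitive endoderm genes 2 fell, 1 of them Lrp2, an endocytic receptor, at 224, 215 and 259.6 CPM with DMSO and 87.8, 87.7 and 93.5 CPM with the inhibitor (log2 fold change -1.38 ± 0.17, adjusted p = 9.02e-05).

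The genes that set DNA methylation went both ways. Of 4 de novo methylation genes 2 fell and 2 were not called, with changes from -1.35 to 1.04. Dnmt3b was at 850.2, 844 and 845 CPM with DMSO and 305, 319 and 371 CPM with the inhibitor (log2 fold change -1.35 ± 0.100, adjusted p = 3.44e-06), and Dnmt3a at 363, 303 and 281 CPM with DMSO and 132, 128 and 136 CPM with the inhibitor (log2 fold change -1.26 ± 0.16, adjusted p = 0.000142). Their cofactor Dnmt3l was at 332, 282 and 283 CPM with DMSO and 293, 330.1 and 386 CPM with the inhibitor, with overlap (log2 fold change 0.17 ± 0.17, adjusted p = 0.492). The main maintenance genes were not called lower. Uhrf1, which brings DNMT1 to newly copied DNA, was at 457, 397 and 390.5 CPM with DMSO and 646, 626 and 626 CPM with the inhibitor (log2 fold change 0.61 ± 0.077, adjusted p = 0.000124). Dnmt1 was at 437, 399 and 398 CPM with DMSO and 474, 449 and 449 CPM with the inhibitor (log2 fold change 0.15 ± 0.081, adjusted p = 0.183), above the DMSO libraries in each inhibitor library yet not called, although it was without the 129 inhibitor replicate 1 (adjusted p = 0.0206). Zfp57, which guards methylation at imprints, was at 181, 197 and 175 CPM with DMSO and 373, 383 and 364 CPM with the inhibitor (log2 fold change 1.02 ± 0.095, adjusted p = 1.44e-05), and Trim28, its corepressor, rose by 0.59. Of the 20 writers and maintenance genes 7 rose and 5 fell. The higher count was 3 without DMSO replicate 2 or DMSO replicate 3, and the lower count 3 without DMSO replicate 1, inhibitor replicate 2 or both libraries that stood apart.

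Genes of active demethylation had 6 of 23 members higher and 5 lower. Tet1 was at 464, 616 and 609 CPM with DMSO and 794, 691 and 482 CPM with the inhibitor, with overlap (log2 fold change 0.22 ± 0.22, adjusted p = 0.491). Tet2 was at 70.4, 115 and 103 CPM with DMSO and 236, 201 and 128 CPM with the inhibitor (log2 fold change 0.97 ± 0.29, adjusted p = 0.0246), and its call ended without DMSO replicate 1 (adjusted p = 0.0895), DMSO replicate 3 (0.0576), inhibitor replicate 1 (0.0911) or inhibitor replicate 2 (0.0758). The glycosylase Tdg and the damage gene Gadd45a fell, with changes of -0.42 and -0.76. Leaving out single B6J libraries gave 2 or 3 higher members except without DMSO replicate 1, and 2 or 3 lower members except without DMSO replicate 1 or inhibitor replicate 1.

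Among 14 genes of H3K9 methylation and heterochromatin 5 fell, such as the methyltransferase Suv39h1, at 41.6, 35.2 and 37.1 CPM with DMSO and 17.7, 17.5 and 17.5 CPM with the inhibitor (log2 fold change -1.12 ± 0.18, adjusted p = 0.000736), and Pphln1, a subunit of the HUSH silencing complex (-0.89). Polycomb genes had 3 of 31 higher and 6 lower, against 14.6% and 16.5% of all genes. The cofactor Epop and the core subunit Eed rose by 0.65 and 0.31, Rbbp7 changed by -0.60 and Ezh2 was at 185, 190.5 and 193 CPM with DMSO and 218, 196 and 176 CPM with the inhibitor, with overlap. The lower polycomb count was 2 without inhibitor replicate 2 and 3 without inhibitor replicate 3 or both libraries that stood apart.

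Imprinted genes were lower in 18 of 49 cases and higher in 7, with a median of -0.33. Of 26 paternally expressed genes 13 fell and 4 rose. Peg10, a retrotransposon-derived gene, was at 414, 408 and 499.8 CPM with DMSO and 62.5, 67.9 and 75.7 CPM with the inhibitor (log2 fold change -2.68 ± 0.20, adjusted p = 3.58e-06). Magel2 and Snrpn, which neighbour each other in the Prader-Willi region, changed by -2.56 and -1.13. Dio3, which inactivates thyroid hormone, was at 1.74, 1.44 and 1.48 CPM with DMSO and 15.5, 17 and 20.7 CPM with the inhibitor (log2 fold change 3.51 ± 0.14, adjusted p = 1.24e-07), and Plagl1 rose by 1.10. Of the maternally expressed genes, Phlda2 and Cdkn1c fell (-1.89 and -1.21) and Cd81 rose (0.60). The number of higher members was 4 without DMSO replicate 1, DMSO replicate 3 or both libraries that stood apart and 3 without inhibitor replicate 2. The counts do not tell the 2 alleles of a gene apart.

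Germline genes that DNA methylation is known to silence rose in 11 of 60 cases and fell in 8, close to the shares of all genes. Tuba3a, a testis tubulin, was at 5.25, 3.39 and 3.41 CPM with DMSO and 11.9, 12.3 and 12.1 CPM with the inhibitor (log2 fold change 1.59 ± 0.29, adjusted p = 0.00145), and Tdrd12, a piRNA pathway gene, rose by 0.57. Dazl, the best known member, was at 1.61, 2.9 and 2.73 CPM with DMSO and 9.36, 6.8 and 3.43 CPM with the inhibitor (log2 fold change 1.43 ± 0.45, adjusted p = 0.0313). Its call ended with limma-voom (adjusted p = 0.0728) and without DMSO replicate 1 (0.106), 2 (0.0563) or 3 (0.0688) or inhibitor replicate 1 (0.118) or 2 (0.0795). Other piRNA genes fell, such as Tdrd5, at 16.7, 17.3 and 18.2 CPM with DMSO and 4.24, 4.11 and 3.6 CPM with the inhibitor (log2 fold change -2.13 ± 0.12, adjusted p = 8.43e-07), and Tdrkh and Tdrd1 (-1.68 and -1.69). The lower count was 14 without the 129 DMSO replicate 1, 13 with the B6J libraries alone, and 5 without DMSO replicate 2, DMSO replicate 3, inhibitor replicate 3 or both libraries that stood apart.

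Some genes mark 2-cell-like cells, which appear in few cells of an ES culture and resemble the early embryo. They were called higher in 17 of 32 cases, against 14.6% of all genes, with a median of 2.19. The summed level of the list was 279, 304 and 307 CPM with DMSO and 342, 329 and 306 CPM with the inhibitor, with overlap. The members shown rose from very low levels. Zscan4d was at 0.227, 0.18 and 0.135 CPM with DMSO and 1.81, 2.13 and 1.49 CPM with the inhibitor and Pramel7 at 0.0503, 0.0722 and 0.243 CPM with DMSO and 1.94, 1.74 and 1.42 CPM with the inhibitor (log2 fold change 3.81 ± 0.50, adjusted p = 0.000153). The DMSO levels of both genes lay below 0.25 CPM and their inhibitor levels near 1 to 2 CPM, without overlap. Many members belong to families of near-identical copies, whose reads the counting may have split or dropped. The count was 11 without DMSO replicate 1 or inhibitor replicate 2, 10 without DMSO replicate 2 or DMSO replicate 3, 11 with a filter at 1 CPM, 7 with limma-voom and 6 without both libraries that stood apart. The adjusted p of Zscan4d was 0.00524 with edgeR and 0.117 with limma-voom.

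Sugar and amino acid genes fell in part. Both main glucose transporters were lower: Slc2a1 was at 676, 572 and 592 CPM with DMSO and 287, 264 and 253 CPM with the inhibitor (log2 fold change -1.20 ± 0.092, adjusted p = 4.27e-06) and Slc2a3 at 1989, 1611 and 1800.2 CPM with DMSO and 1092, 978 and 919.8 CPM with the inhibitor (log2 fold change -0.85 ± 0.084, adjusted p = 2.27e-05). Pdk1, a kinase that inhibits pyruvate dehydrogenase, was at 228, 199 and 190.4 CPM with DMSO and 74.3, 73.7 and 74.3 CPM with the inhibitor (log2 fold change -1.47 ± 0.090, adjusted p = 1.05e-06). Of 28 glycolysis genes 9 fell and 5 rose, the risers including Hk1 (0.69) and Ldhb (0.56), and 3 rose without DMSO replicate 3. Of 27 genes of the ATF4 amino acid response 13 fell and 2 rose. Atf4, its transcription factor, was at 562, 519 and 511 CPM with DMSO and 399.9, 391 and 398 CPM with the inhibitor (log2 fold change -0.42 ± 0.062, adjusted p = 0.000384), its target Chac1 changed by -1.37, and the amino acid transporter subunits Slc7a5 and Slc3a2 by -0.68 and -0.52. Aldh1l2 rose (0.71).

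Sterol synthesis genes showed small falls, 14 of 26, with a median of -0.31. Lss, which encodes lanosterol synthase, was at 94.3, 79.8 and 82.5 CPM with DMSO and 62.8, 52.4 and 52.7 CPM with the inhibitor (log2 fold change -0.61 ± 0.11, adjusted p = 0.00159). Sc5d, a sterol desaturase gene of a late step, changed by -0.60, and Ebp, a sterol isomerase gene, rose by 0.53. Over the list with fatty acid genes, the 16 lower members were 9 without both libraries that stood apart. NRF2 and glutathione genes divided evenly, with 6 of 25 higher and 6 lower. The glutathione synthesis genes Gclc and Gclm and the thioredoxin reductase Txnrd1 fell (-0.74, -0.59 and -0.72), while Gss, Gpx1 and Nqo1 rose (0.62, 0.61 and 0.55).

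Ribosomal protein genes changed little: edgeR, DESeq2 and limma-voom each called 0 of 76, edgeR gave 0 at an unadjusted p under 0.05, and their changes ran from -0.17 to 0.068. Of 44 respiratory chain subunits 6 were called higher, below the 14.6% of all genes, such as Cox5a, at 82.3, 71.2 and 67.5 CPM with DMSO and 116, 119.5 and 114 CPM with the inhibitor (log2 fold change 0.67 ± 0.091, adjusted p = 0.000214), and Ndufb5 (0.39). That count was 13 without DMSO replicate 1 and 3 without DMSO replicate 3.

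Cell cycle genes changed by small amounts. Of 24 G1 genes 6 rose and 4 fell: Ccnd3, a D cyclin, was at 192, 162 and 155 CPM with DMSO and 263, 248 and 249 CPM with the inhibitor (log2 fold change 0.58 ± 0.086, adjusted p = 0.000409), Cdk2 and E2f1 rose by 0.49 and 0.43, and Cdk6 changed by -0.53. Of 33 replication genes 8 rose and 2 fell, with Mcm5 and Rrm2 at 0.35 and 0.32. The number of higher members was 14 without DMSO replicate 1 or without the 129 inhibitor replicate 1, 13 with DESeq2, 3 without DMSO replicate 2 or DMSO replicate 3, and 14 without both libraries that stood apart. The MYC network had 3 of 28 higher and 5 lower, against 14.6% and 16.5% of all genes. Mxd4, an antagonist of MYC, was at 15.2, 19.4 and 18.6 CPM with DMSO and 32.1, 38.7 and 46.9 CPM with the inhibitor (log2 fold change 1.15 ± 0.23, adjusted p = 0.0032). The target Odc1 changed by -0.29. Of the lower members 3 were left without both libraries that stood apart.

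In the BCL2 family, which decides on cell death at the mitochondrion, 7 of 15 fell. Bcl2l11, which encodes the killer protein BIM, was at 76.5, 67.4 and 68.5 CPM with DMSO and 26.6, 24.7 and 26.8 CPM with the inhibitor (log2 fold change -1.44 ± 0.075, adjusted p = 4.94e-07). Another killer gene, Bik, changed by -1.73, and the protector Bcl2 was at 5.27, 6.8 and 7.49 CPM with DMSO and 2.54, 2.66 and 2.82 CPM with the inhibitor (log2 fold change -1.28 ± 0.15, adjusted p = 8.18e-05). Of 24 p53 targets 6 rose and 3 fell, with Fas up (1.45) and Perp and Ddit4 down (-1.06 and -0.99). The higher count was 3 without DMSO replicate 2, DMSO replicate 3 or both libraries that stood apart. Lysosome and autophagy genes had 7 of 34 higher and 6 lower, close to the shares of all genes (14.6% and 16.5%). The rises included 3 regulators: Tfeb was at 17.4, 14.5 and 15.4 CPM with DMSO and 35.5, 36.8 and 37.8 CPM with the inhibitor (log2 fold change 1.22 ± 0.092, adjusted p = 3.92e-06), Mitf at 4.1, 4.99 and 4.48 CPM with DMSO and 22.6, 21.3 and 14.1 CPM with the inhibitor (log2 fold change 2.10 ± 0.16, adjusted p = 3.97e-06), and Ulk1, the kinase that starts autophagy, at 228, 195 and 188 CPM with DMSO and 474, 433 and 448 CPM with the inhibitor (log2 fold change 1.15 ± 0.096, adjusted p = 6.44e-06). The higher count was 11 with the B6J libraries alone, and the lower count was 3 without DMSO replicate 1, inhibitor replicate 2 or both libraries that stood apart.

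Genes that present antigen on MHC class I were lower in 11 of 24 cases. H2-K1, a classical class I heavy chain, was at 51.9, 50.6 and 50.2 CPM with DMSO and 15.9, 16.3 and 17.1 CPM with the inhibitor (log2 fold change -1.63 ± 0.16, adjusted p = 2.29e-05). Psmb8, an immunoproteasome subunit, was at 3.2, 2.55 and 3.6 CPM with DMSO and 0.38, 0.353 and 0.62 CPM with the inhibitor (log2 fold change -2.77 ± 0.38, adjusted p = 0.000229). H2-D1, the other classical chain, was at 28.1, 29.2 and 28.7 CPM with DMSO and 26.5, 28.9 and 35.1 CPM with the inhibitor, with overlap. Class I genes share sequence, so their reads may be split between them. Interferon response genes divided, with 10 of 30 higher and 4 lower. Gbp2, a guanylate-binding protein, was at 33.3, 35.6 and 50.0 CPM with DMSO and 3.59, 3.13 and 4.07 CPM with the inhibitor (log2 fold change -3.46 ± 0.33, adjusted p = 1.72e-05) and Oasl2 changed by -2.04, while Ifitm1, Ifitm2 and Ifitm3 rose by 0.51, 0.78 and 0.78 and Xaf1 by 1.72. The lower count was 2 without inhibitor replicate 1.

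Matrix genes were among the largest rises, together with markers of fibroblasts. Of 25 fibroblast markers 15 rose, with a median of 0.79, and their summed level was 8107 to 9096 CPM with DMSO and 11701 to 17696 CPM with the inhibitor. Col1a1, a defining marker, was at 945, 1051 and 995 CPM with DMSO and 1531, 2101 and 2791 CPM with the inhibitor (log2 fold change 1.10 ± 0.28, adjusted p = 0.0107). Dcn, another, was at 2.72, 3.99 and 2.73 CPM with DMSO and 9.79, 11.7 and 11.9 CPM with the inhibitor (log2 fold change 1.83 ± 0.29, adjusted p = 0.000686). Thy1 was at 147, 188 and 156 CPM with DMSO and 158, 198 and 248 CPM with the inhibitor, with overlap. No defining marker was at 0. Without both libraries that stood apart the count was 4, and the adjusted p of Col1a1 was 0.112. The part of fibroblasts in the matrix and Hox results was not tested.

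Prelp, a leucine-rich matrix protein, was the largest rise of a gene with at least 5 CPM, at 1.25, 1.06 and 1.04 CPM with DMSO and 18.4, 25.8 and 33.6 CPM with the inhibitor (log2 fold change 4.54 ± 0.45, adjusted p = 2.36e-05). Col10a1, a short-chain collagen, was at 0.755, 0.758 and 1.01 CPM with DMSO and 10.9, 16.3 and 18.3 CPM with the inhibitor (log2 fold change 4.17 ± 0.32, adjusted p = 4.38e-06). Eln, which encodes elastin, was at 2.88, 2.65 and 3.25 CPM with DMSO and 23, 29.9 and 40.4 CPM with the inhibitor (log2 fold change 3.41 ± 0.26, adjusted p = 4.38e-06). Col12a1, Fbln5, Lox, Col14a1, Nov, C1qtnf3 and Adamts5 rose by 2.17, 2.22, 1.61, 3.20, 3.59, 3.85 and 3.08. Each of them had no overlap between treatments, which the rule for naming the largest changes required of all but Col12a1, Fbln5 and Lox. Of 23 basement membrane genes 8 rose and 1 fell: Lama2, Lama3, Lama4 and Nid2 rose by 1.53, 1.33, 1.02 and 0.90, and Lama5, the main laminin chain of early epithelia, was at 583, 535 and 587 CPM with DMSO and 404, 409.8 and 435 CPM with the inhibitor (log2 fold change -0.45 ± 0.10, adjusted p = 0.00584). The count of 8 was 16 without the 129 DMSO replicate 1, 17 with the B6J libraries alone and 5 without both libraries that stood apart. Of 23 smooth muscle genes 1 was called, Synpo2 (0.88), whose call ended without both libraries that stood apart (adjusted p = 0.0955), and Acta2 was at 928, 1192 and 1174 CPM with DMSO and 969, 1355 and 1829 CPM with the inhibitor, with overlap. Hox genes had 6 of 35 higher and 3 lower, against 14.6% and 16.5% of all genes. Most of them were under 10 CPM, such as Hoxc13, at 1.62, 1.79 and 1.47 CPM with DMSO and 4.51, 5.06 and 4.17 CPM with the inhibitor (log2 fold change 1.49 ± 0.21, adjusted p = 0.000243). The 6 were 3 without DMSO replicate 1, DMSO replicate 2, DMSO replicate 3 or inhibitor replicate 3, 2 without both libraries that stood apart and 10 with the B6J libraries alone.

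**Figure D4:**
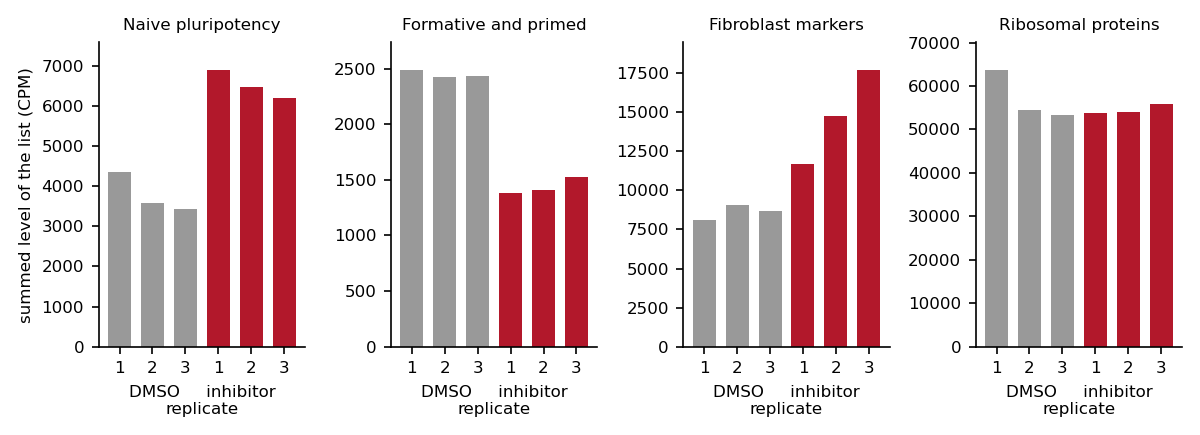
Summed level of 4 gene lists in each of the 6 B6J libraries (CPM, linear axes that start at 0). Naive pluripotency genes and fibroblast markers were higher in each inhibitor library than in any DMSO library, formative and primed genes were lower, and ribosomal protein genes lay between 53303 and 63645 CPM.

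The largest fall of a gene with at least 5 CPM was that of Csn3, which encodes the milk protein kappa-casein (chromosome 5, 87925579 to 87932665, GRCm38), at 10.2, 9.69 and 13.7 CPM with DMSO and 0.0253, 0.0243 and 0.063 CPM with the inhibitor (log2 fold change -8.12 ± 0.73, adjusted p = 1.17e-05). Shisa6, Fndc3c1, Sel1l3, Tmem54, Car4, Ppp4r4 and Mal2 were among the next largest falls, with -4.79, -4.39, -4.37, -4.25, -3.80, -3.75 and -3.74. Car4, a carbonic anhydrase on the cell surface, was at 48, 38.5 and 43.7 CPM with DMSO and 3.28, 2.8 and 3.27 CPM with the inhibitor. The groups stayed apart for all of these, which the rule for naming the largest changes required. Rises outside the matrix were A2m, a protease inhibitor, at 1.61, 0.818 and 0.54 CPM with DMSO and 23.4, 15.2 and 10.2 CPM with the inhibitor (log2 fold change 4.03 ± 0.42, adjusted p = 2.90e-05), Rpl39l, a germ cell copy of a ribosomal protein gene, at 2.67, 2.14 and 1.73 CPM with DMSO and 26.6, 23.2 and 23.8 CPM with the inhibitor (log2 fold change 3.49 ± 0.31, adjusted p = 1.01e-05), and Aldh1a1, which makes retinoic acid, at 0.554, 0.638 and 0.863 CPM with DMSO and 5.43, 5.69 and 7.1 CPM with the inhibitor (log2 fold change 3.15 ± 0.26, adjusted p = 6.66e-06). Rec114, a gene of meiotic recombination, rose by 3.11, and Rgs4, a brake on G protein signals, by 3.15.

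In reads rather than folds, the genes called higher went from a summed 110272 to 164506 CPM and those called lower from 151904 to 104647 CPM. The largest falls in CPM were those of Slc2a3, Dnmt3b, Peg10 and Slc2a1, given above. Gja1, a gap junction protein also among the 10 largest, was at 425, 422 and 446 CPM with DMSO and 157, 169 and 178 CPM with the inhibitor (log2 fold change -1.36 ± 0.069, adjusted p = 4.30e-07). Fn1, which encodes fibronectin and came first among the rises in CPM, was at 3217, 3205 and 3312 CPM with DMSO and 3889, 4547 and 5223 CPM with the inhibitor (log2 fold change 0.49 ± 0.17, adjusted p = 0.0436). Its call ended without any 1 of the 3 DMSO libraries (adjusted p = 0.0958 to 0.106), without inhibitor replicate 2 (0.0939) or 3 (0.148), without both libraries that stood apart (0.249) and without any 1 of the 129 inhibitor libraries (0.051 to 0.055). Actb rose by 0.32 and Trim28 was at 1862, 1650.4 and 1616 CPM with DMSO and 2443, 2513 and 2766 CPM with the inhibitor (log2 fold change 0.59 ± 0.076, adjusted p = 0.000143). CPM grows with transcript length, so these ranks compare reads and not molecules.

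Some genes had no count in 1 of the treatments. Of the called genes, 13 had 0 counts in all DMSO libraries and 3 in all inhibitor libraries. With 3 counts per group taken as the floor, Sprr2a3, a cornified envelope gene with 69, 68 and 116 counts with DMSO, was at least 92.5-fold lower. Il24, a cytokine gene with 45, 40 and 80 counts, was at least 60.4-fold lower. Pla2g2f, a secreted phospholipase with 28, 18 and 18 counts with the inhibitor, was at least 19.4-fold higher, and Calhm3, a channel gene with 11, 16 and 12 counts, at least 11.8-fold higher. The call of Calhm3 ended without DMSO replicate 1 (adjusted p = 0.0508), 2 (0.0545) or 3 (0.0536), inhibitor replicate 2 (0.057) or both libraries that stood apart (0.0777). These 4 genes were chosen after their values were seen. The bounds allow only for counting error in the group with 0 counts, and the other group enters with its observed counts. They also take each count as independent, which was not tested.

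The response of B6J cells was set beside that of 129 cells by the difference of the log2 fold changes, B6J minus 129. It was called for 246 genes, 1.48% of those tested: 118 were higher and 128 lower. Both responses were called for 3683 genes, of which 45 moved in opposite directions. The number called depended on single libraries. It was 323 higher and 263 lower without the 129 DMSO replicate 1, moved by less than 1.5 times without the 129 inhibitor replicate 1, and was 34 to 69 higher and 39 to 79 lower without any 1 of the other 10 libraries. It was 44 and 36 without both B6J libraries that stood apart. The differences of Cdx4, Wnt7b, Ltb, Slc40a1, Sema5a, Eomes, Esrp1, Gadd45a and Gsc were called under each of 22 alternatives, and those of the other 25 genes named in the text with a called difference were not.

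Some genes fell in B6J and hardly or not in 129. Cdx4, a caudal homeobox gene on the X chromosome, was at 4.23, 3.38 and 5.75 CPM with DMSO and 0.0759, 0.17 and 0.126 CPM with the inhibitor, a change of -5.14 against -0.36 in 129 (difference -4.78 ± 0.65, adjusted p = 0.00572). Scn2b, a sodium channel subunit, was at 5.49, 5.09 and 4.65 CPM with DMSO and 1.54, 1.25 and 1.42 CPM with the inhibitor, -1.85 against 0.094 (difference -1.95 ± 0.32, adjusted p = 0.0137). Wnt7b changed by -1.44 in B6J and 0.54 in 129 (difference -1.98 ± 0.29, adjusted p = 0.00736). The libraries of the B6J treatments did not overlap for any of these, which the rule that named Scn2b and Wnt7b required. In 129, Cdx4 was low already with DMSO, at a mean of 0.595 CPM, against 0.457 CPM with the inhibitor. St8sia2, Ltb, Slc40a1, Ttbk1 and Shisa6 fell in B6J, with changes of -3.49, -3.39, -3.25, -2.62 and -4.79, against -0.71, -1.52, -1.38, -0.89 and -3.08 in 129. Slc40a1 encodes ferroportin, the exporter of iron.

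Other genes rose in B6J or fell less than in 129. Sema5a, a semaphorin, was at 6.76, 8.04 and 10.2 CPM with DMSO and 19.7, 16.7 and 14.1 CPM with the inhibitor, 1.02 against -2.34 (difference 3.36 ± 0.29, adjusted p = 0.00115). Dnah8, an axonemal dynein, was at 17.8, 17.6 and 17.5 CPM with DMSO and 57.4, 50.0 and 44 CPM with the inhibitor, 1.52 against -0.15 (difference 1.67 ± 0.32, adjusted p = 0.032). Eomes, a T-box factor of the streak, was at 7.43, 8.64 and 10.4 CPM with DMSO and 5.88, 5.63 and 5.81 CPM with the inhibitor with -0.61 against -3.02 (difference 2.41 ± 0.23, adjusted p = 0.00115), and its call in B6J ended without inhibitor replicate 2 (adjusted p = 0.0575) or DMSO replicate 3 (0.0591). Slc4a5 rose more in B6J (2.72 against 1.14), and Erap1 and Trim67 fell less (-1.18 and -2.92 against -2.73 and -4.46). Dppa3, described with the naive genes, fell in B6J and changed by 0.65 in 129 (difference -1.10 ± 0.19, adjusted p = 0.0187). Levels with DMSO differed between the backgrounds as well. In 129, Dnah8 had means of 178 CPM with DMSO and 161 CPM with the inhibitor, both above its B6J levels. Eomes went from 31.4 to 3.86 CPM in 129 and Dppa3 from 10.6 to 16.7 CPM. Erap1 went from 44.5 to 6.72 CPM in 129 and from 14.5 to 6.39 CPM in B6J. For the other genes of this paragraph 129 levels are not given. The plot of both responses shows these genes, apart from Cdx4 and Dppa3.

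**Figure D5:**
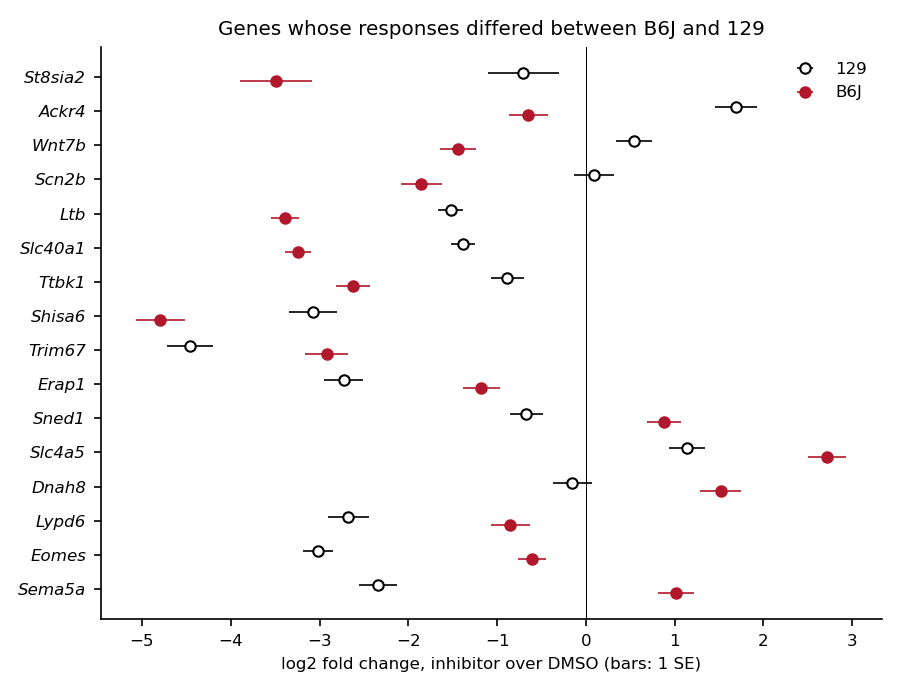
Log2 fold change of inhibitor over DMSO in B6J (filled) and in 129 (open) for 16 genes whose responses differed, with bars of 1 SE from the fit over 12 libraries. The upper genes have the lowest differences, B6J minus 129, and the lower genes the highest.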

How the data were processed

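RNA was sequenced from 12 libraries of mouse ES cells, of which the 6 labelled B6J are described. The authors deposited 1 table of gene counts, which holds 26742 genes. Tools and builds listed without role or order in the submitters' processing notes are HTSeq 0.6.1p1, STAR 2.7.10, SAMtools, DESeq, GRCm38 and mm10. Of the identifiers, 26656 were matched to GENCODE M21 on GRCm38, which gave coordinates and gene types. Between 70% and 73% of the deposited counts from 1 to 20 were even, so halved counts were tried as an alternative.

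Genes were kept with filterByExpr (minimum count 10, minimum total 15), scaled by TMM and fitted with edgeR 4.0.16 in R 4.3.3, with 4 group means over 12 libraries and Benjamini-Hochberg adjustment over 16627 genes. CPM values were computed from those counts. DESeq2 1.42.0 and limma-voom (limma 3.58.1), other scalings and filters, a replicate block, the B6J libraries alone and leaving out each library were the alternatives. Leaving out both libraries that stood apart was added after seeing the data.

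The 43 gene lists and their members were chosen with earlier results of these data known. The genes named are the 15 largest changes in each direction among genes that reached 5 CPM on average in either treatment without overlap of the libraries, the 10 largest changes in CPM, the panel genes of each list with the 4 called members of smallest p in each direction and called members against most of their list, the 8 largest differences of responses in each direction, and the cell type markers. Some genes that the rule names are not reported here. Promoter sequences were taken from RefSeq.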

Additional observations from a re-analysis of the deposited data

Results flagged for a closer look

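For the following genes of the text, the test of the difference between the B6J and the 129 response passed an adjusted p of 0.05 (edgeR's quasi-likelihood test). Each value is the difference of log2 fold changes, B6J minus 129. Primitive streak and organiser genes had higher values in B6J: Gsc 3.28 (adjusted p = 0.00736), Mixl1 2.92 (0.00854) and Eomes 2.41 (0.00115). Cdx4, a homeobox gene of the posterior embryo, had -4.78 (0.00572). In 129 it was low already with DMSO, at a mean of 0.595 CPM. Eomes had a higher mean with DMSO in 129, 31.4 CPM against 8.82 CPM in B6J. The change of Gsc was 1.75 in B6J against -1.53 in 129, and that of Mixl1 was -1.49 against -4.41.

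Epithelial genes did not share a direction: Grhl2 had -0.92, Krt7 -1.38, Sfn 0.63 and Esrp1 1.01. The difference of responses was -0.47 for Atf4 and -1.01 for its target Chac1, -0.56 for the glutathione gene Gclm and -0.75 for Pdk1. The damage gene Gadd45a had -1.19 and the trophoblast factor Gata3 -1.68.

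Signalling genes with a lower response in B6J were Wnt7b (-1.98), Fgfbp1 (-0.995) and Ltb (-1.86), while Axin2 had 0.95. Germline and 2-cell-like genes went both ways: Zscan4d had 4.72, from a change of 3.31 in B6J and -1.41 in 129, Tdrd5 had 0.98 and Dppa3 -1.10.

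For the neural stem cell gene Nes the value was 0.57, for the basement membrane gene Nid2 it was 0.60, and for Tmem54 it was -1.02. Among genes named for the size of their difference, the lower ones were St8sia2 (-2.79), Scn2b (-1.95), Slc40a1 (-1.86), Ttbk1 (-1.74) and Shisa6 (-1.72), and the higher ones Sema5a (3.36), Dnah8 (1.67), Slc4a5 (1.58), Erap1 (1.55) and Trim67 (1.54). Of all 34 genes given here, 9 were called under each of the 22 alternatives, namely Cdx4, Eomes, Esrp1, Gadd45a, Gsc, Ltb, Sema5a, Slc40a1 and Wnt7b. The other 25 lost the call under at least 1.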

How the results depend on the processing

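Counts of genes called in B6J stayed within 1.5 times of 2423 higher and 2743 lower under all 23 alternatives, from 1736 to 3035 and from 1895 to 3246. The difference of responses did not. DESeq2 called 402 higher and 396 lower and limma-voom called 70 higher, leaving out single libraries gave 34 to 323 higher and 39 to 263 lower, and leaving out both B6J libraries that stood apart, an alternative chosen after seeing the data, gave 44 and 36. The cause was not tested. Of 246 named genes called in B6J, 227 were called under each alternative in which they were tested.

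Signs turned for 5 genes that were not called. With 1 library left out, log2 fold changes ran from -0.00026 to 0.13 for Ezh2, from -0.042 to 0.19 for H2-D1, from -0.21 to 0.38 for Id1 and from -0.69 to 0.19 for Ddx3y, which was at 0.21 with limma-voom and 0.14 with the replicate block. Without both libraries that stood apart, H2-D1, Id1 and Acta2 were at -0.067, -0.34 and -0.028. Of 2967 list counts and medians under an alternative, 298 moved, by over 1.5 times for a count or by more than the spread of the inhibitor libraries for a median.

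With the replicate number as a block, 2711 genes were called higher and 2796 lower in B6J. Libraries of the same number in both B6J groups had deviations that correlated at -0.188, 0.088 and -0.170. In 129 the values were 0.442, 0.295 and 0.222. There, DMSO replicate 2 with inhibitor replicate 3 had 0.209, and DMSO replicate 3 with inhibitor replicate 2 had 0.194. Unmatched pairs with a 129 replicate 1 had -0.385 to -0.274. In B6J, DMSO replicate 1 and inhibitor replicate 3, which stood apart, had 0.267. The labels do not say whether replicate numbers pair libraries. With both libraries that stood apart included, the B6J values cannot decide it. The 129 values cannot either, as replicate 1 of each 129 group differed most from the others of its group. Halved counts gave 2429 higher and 2762 lower, and of genes at or under 1 CPM 22.7% were called. What depth limits was not tested further.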

Other observations

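Further genes of epithelia fell, chosen here after their values were seen; Krt18, Krt19 and Cldn6 are members of the lists above. Krt18, the keratin that pairs with that of Krt8 to form filaments, was at 195, 147 and 192 CPM with DMSO and 12.2, 15.1 and 16.7 CPM with the inhibitor (log2 fold change -3.60 ± 0.47, adjusted p = 0.000157). Krt19, a further keratin of simple epithelia, changed by -3.05, and Dsp, which anchors keratin at desmosomes, by -2.41. The tight junction genes Cldn6 and Cgn (claudin 6 and cingulin) changed by -2.28 and -1.94, and Sfn, an epithelial protein of the 14-3-3 family, was at 251, 229.7 and 237 CPM with DMSO and 71.1, 69.8 and 75.9 CPM with the inhibitor (log2 fold change -1.73 ± 0.092, adjusted p = 5.98e-07). Cntfr, which encodes a receptor subunit that works with LIFR and IL6ST, was at 34.6, 33.9 and 41.6 CPM with DMSO and 3.7, 4.75 and 5.53 CPM with the inhibitor (log2 fold change -2.98 ± 0.24, adjusted p = 5.04e-06), whereas those partners rose. The groups did not overlap for any of these genes.

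Among rises chosen in the same way, Calcoco2, an autophagy receptor, was at 33.1, 33.5 and 34.8 CPM with DMSO and 245, 236 and 236 CPM with the inhibitor (log2 fold change 2.82 ± 0.17, adjusted p = 8.43e-07), and Ckb, a creatine kinase, was at 197, 181 and 173 CPM with DMSO and 541, 519 and 559 CPM with the inhibitor (log2 fold change 1.55 ± 0.077, adjusted p = 4.30e-07). Fbxo15, a target of OCT4 and SOX2 in ES cells, and Kit, the receptor of stem cell factor, rose by 1.60 and 1.52. Sfrp1, a secreted Wnt antagonist, was at 105, 86.3 and 86 CPM with DMSO and 358, 319 and 292 CPM with the inhibitor (log2 fold change 1.80 ± 0.10, adjusted p = 7.74e-07). All 3 inhibitor libraries exceeded all 3 DMSO libraries for each.

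Of the long noncoding RNAs, also chosen after their values were seen, Eprn was at 18.1, 19.3 and 18.8 CPM with DMSO and 48.6, 48.9 and 47.7 CPM with the inhibitor (log2 fold change 1.37 ± 0.078, adjusted p = 8.26e-07). Ftx, which lies near Xist in the X inactivation centre, was at 4.17, 8.77 and 7.73 CPM with DMSO and 2.2, 1.95 and 1.56 CPM with the inhibitor (log2 fold change -1.86 ± 0.27, adjusted p = 0.000294). Xist itself was at 17.8, 54.6 and 39.9 CPM with DMSO and 72.7, 86.8 and 53.4 CPM with the inhibitor, with overlapping groups (log2 fold change 0.92 ± 0.34, adjusted p = 0.0625). It passed the test with DESeq2 (0.0213), limma-voom (0.0387) or the replicate block (0.0473), without the 129 DMSO replicate 1 (0.0469) and without B6J DMSO replicate 2 (0.022).

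Some Y-linked genes, chosen in the same way, varied within the treatments, in lines labelled male. Ddx3y was at 2.24, 18.7 and 17.3 CPM with DMSO and 9.83, 16.7 and 7.04 CPM with the inhibitor, Eif2s3y at 13.8, 53.3 and 50.9 CPM with DMSO and 18.6, 44.3 and 31.6 CPM with the inhibitor and Uty at 4.69, 21 and 19.4 CPM with DMSO and 8.73, 14.2 and 7.35 CPM with the inhibitor. The lowest DMSO values were those of replicate 1. Uty was not called, but was without that library (log2 fold change -1.005, adjusted p = 0.031). Over 9333 genes averaging 10 CPM or more, the log2 CPM of each library was compared with the mean of the other libraries of its group. These deviations had a Spearman correlation with GC content of 0.550 in DMSO replicate 1 and 0.577 in inhibitor replicate 3. In the other 4 libraries it was -0.551 to -0.339, against means that each included a library that stood apart. With transcript length the deviations had -0.377 and -0.306, against 0.189 to 0.424. These are correlations across genes, which are not independent replicates.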
